A study of Mus musculus with 2 samples.

Results

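The genes described here are 10 genes tied to brown fat, taken by symbol from a list: Ucp1, Cidea, Elovl3, Dio2, Adrb3, Prdm16, Ppargc1a, Ppargc1b, Adipoq and Lep. All 10 symbols were found once each among the 55536 annotated genes of the tables, and 9 passed the filter on low counts that kept 18160 genes for testing. They were measured in 2 total RNA libraries from adrenal glands of 4-day-old male mice of the F1 hybrid strain B6CASTF1/J, a cross of C57BL/6J with the wild-derived CAST/EiJ. The libraries form 1 untreated group, replicates 1 and 2, with 300 ng of RNA and ERCC spike-in transcripts in each. The labels number the males differently but give 1 donor label, so nothing below is an estimate of the spread between animals. The p-values set the difference between the libraries against counting error only. The labelled tissue is the whole gland, and the sources used here do not state how the fat around it was trimmed.

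Brown fat burns lipid to make heat. Noradrenaline acts on the beta-3 adrenergic receptor (Adrb3) of the brown adipocyte, cyclic AMP rises, lipid is broken down, and the uncoupling protein Ucp1 lets protons flow back across the inner mitochondrial membrane without making ATP. Prdm16 and the coactivators Ppargc1a and Ppargc1b act on transcription in these cells, and Dio2 makes active thyroid hormone inside them. Cidea and Elovl3 act on lipid droplets and on the elongation of fatty acids. Adipoq and Lep encode adiponectin and leptin, hormones of adipocytes in general, leptin being made mostly by white fat, so the list is not purely thermogenic. Fat around the kidney and adrenal of newborn mammals is largely of the brown kind.

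The windows of 250 bases before the RefSeq start site (GRCm38.p6) are shown for the member of highest level, Ucp1, for the adipocyte hormone gene Adipoq, and for Dio2 and Ppargc1a, genes known to respond to cyclic AMP. Capitals mark the cyclic AMP response element TGACGTCA, its part TGACG, the nuclear receptor half-site AGGTCA and the box TATAAA, on either strand. The TGACG match of Ppargc1a reads on the other strand, and the Dio2 matches of TGACG lie inside TGACGTCA.
Ucp1, chr8:83290098-83290347, plus strand: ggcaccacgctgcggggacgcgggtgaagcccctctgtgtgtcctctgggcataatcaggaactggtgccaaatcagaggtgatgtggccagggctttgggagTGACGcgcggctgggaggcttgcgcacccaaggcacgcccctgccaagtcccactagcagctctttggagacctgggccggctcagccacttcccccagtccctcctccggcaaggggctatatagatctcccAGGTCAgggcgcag
Adipoq, chr16:23146286-23146535, plus strand: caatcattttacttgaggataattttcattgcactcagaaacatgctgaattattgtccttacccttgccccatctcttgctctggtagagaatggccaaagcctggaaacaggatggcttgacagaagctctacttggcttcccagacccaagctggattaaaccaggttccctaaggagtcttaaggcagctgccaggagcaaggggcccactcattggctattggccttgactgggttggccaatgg
Dio2, chr12:90739039-90739288, minus strand: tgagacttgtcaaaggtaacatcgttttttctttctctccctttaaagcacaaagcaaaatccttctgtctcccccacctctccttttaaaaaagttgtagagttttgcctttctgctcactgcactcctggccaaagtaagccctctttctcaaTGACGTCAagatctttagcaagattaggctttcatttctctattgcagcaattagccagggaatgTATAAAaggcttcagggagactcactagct
Ppargc1a, chr5:51567726-51567975, minus strand: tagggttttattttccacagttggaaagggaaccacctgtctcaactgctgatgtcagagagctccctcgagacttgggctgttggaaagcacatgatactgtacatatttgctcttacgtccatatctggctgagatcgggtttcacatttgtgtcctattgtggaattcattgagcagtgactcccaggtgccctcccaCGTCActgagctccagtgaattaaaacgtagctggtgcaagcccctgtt

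TGACGTCA was found in 1.55% of the 32851 windows of this length in the table and, of the members with a window, in that of Dio2, 95 to 88 bases before the start. TGACG was found in 17.8% of windows, and in those of Ucp1 (147 to 143 bases before the start) and Ppargc1a (49 to 45 bases before it) as well. AGGTCA was found in 14.0% of windows and in that of Ucp1, and TATAAA in 12.4% and in that of Dio2. Windows were matched for 6 of the 10 genes, and those of Adipoq, Lep and Prdm16 held none of these letters. Cidea, Ppargc1b, Elovl3 and Adrb3 had no entry. These matches describe letters and not binding.

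Ucp1 had by far the highest level of the 10 genes, Adipoq and Cidea followed, and the regulators and receptors were low. Of the 10 genes, 8 reached a mean of 1 TPM (a level scaled by transcript length and by the library's total), and Adrb3 and Elovl3 did not. Of all 22028 protein-coding genes, 13305 reached that mean, a share that stands beside every count of genes at 1 TPM below. Ucp1, Adipoq and Cidea together made up 93.0% and 93.1% of the summed TPM of the 10 genes in replicates 1 and 2, and Ucp1 alone 52.6% and 60.2%. Ordered by mean TPM, the genes ran Ucp1, Adipoq, Cidea, Ppargc1b, Ppargc1a, Prdm16, Lep, Dio2, Adrb3 and Elovl3. The ranges over the libraries overlapped for 4 of the 9 neighbouring pairs, namely Adipoq with Cidea, Ppargc1a with Prdm16, Lep with Dio2, and Adrb3 with Elovl3, so the order within these pairs is not settled.

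**Figure D1:**
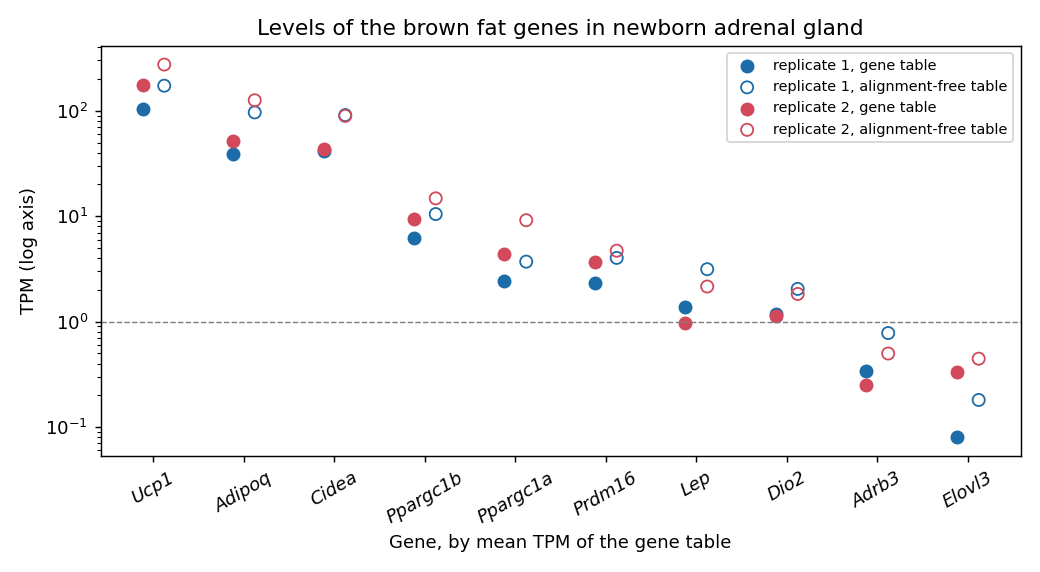
TPM of each gene (log axis) in replicate 1 (blue) and replicate 2 (red), from the gene table (filled) and the alignment-free table (open); the dashed line is 1 TPM. Ucp1 lies at 105 and 174 TPM in the gene table, and Adrb3 and Elovl3 lie below the line in every table.

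Ucp1, the proton carrier of brown fat mitochondria (ENSMUSG00000031710.4, chromosome 8, 83290352 to 83298452 in mm10), had 5320 counts in replicate 1 and 8004 in replicate 2, or 105 and 174 TPM. Its mean was 139.5 ± 49.4 TPM (SD, n = 2), and by TPM it ranked 501st and 277th among 22028 protein-coding genes. The higher value was that of replicate 2, where its TMM-scaled count was 1.57-fold that of replicate 1 (log2 ratio 0.65, 95% counting interval 0.60 to 0.70). This ratio passed the exact binomial test of the libraries (adjusted p = 2.4e-143) but not the 2-fold limit. Its single annotated transcript, with 6 exons, held all of its counts.

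Cidea, a lipid droplet protein abundant in brown fat (ENSMUSG00000024526.9, chromosome 18, 67343604 to 67367785), had 1404 counts in replicate 1 and 1328 in replicate 2, or 41.7 and 43.8 TPM. The libraries differed by a log2 ratio of -0.02 (interval -0.13 to 0.09), which did not pass the exact binomial test (adjusted p = 0.847). The upper end of that interval lies below the lower end of the interval of Ucp1. Within a library the log2 ratio of Ucp1 to Cidea in TPM was 1.32 in replicate 1 and 1.99 in replicate 2. The fold of Ucp1 over Cidea was thus 2.50 and 3.98.

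Elovl3, the fatty acid elongase that cold induces in brown fat (ENSMUSG00000038754.5, chromosome 19, 46131897 to 46135694), had 5 counts in replicate 1 and 16 counts in replicate 2, or 0.08 and 0.33 TPM. The filter asks for enough counts in both libraries, so Elovl3 was not tested with the rest. Without that filter its log2 ratio was 1.64, and the exact binomial test gave an adjusted p of 0.0866. The gene Pitx3, with 5 and 13 counts, overlaps its end on the opposite strand by only 10 bases.

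Dio2, the deiodinase that makes active thyroid hormone (ENSMUSG00000007682.6, chromosome 12, 90724552 to 90738438), had 1.18 and 1.12 TPM from 223 and 191 counts. Its log2 ratio of -0.16 (interval -0.45 to 0.12) did not pass the exact binomial test (adjusted p = 0.434). The libraries were close for this gene. The annotated start of its single transcript lies 600 bases from the RefSeq start site used for the window shown above.

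Adrb3, the receptor through which noradrenaline drives heat production (ENSMUSG00000031489.15, chromosome 8, 27225776 to 27250616), had 28 and 18 counts, or 0.34 and 0.25 TPM. Its log2 ratio of -0.57 had a counting interval of -1.52 to 0.33 and did not pass the exact binomial test (adjusted p = 0.393), so a difference was not detectable at this depth. The antisense gene Gm45470 overlaps it with 22 and 12 counts, close to its own, and the sources do not state whether the counting used the strand, so the part of its reads in the Adrb3 count was not tested. Adrb1, the beta-1 receptor, had higher TPM than Adrb3 in both libraries, with 90 and 79 counts (0.95 and 1.0 TPM).

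The 3 transcriptional regulators were higher in replicate 2, each by less than 2-fold. Prdm16, which directs cells to the brown fat fate (ENSMUSG00000039410.16, chromosome 4, 154316125 to 154636873), had 2.35 and 3.64 TPM from 356 and 468 counts, a log2 ratio of 0.45 (interval 0.25 to 0.66, adjusted p = 6.06e-05 in the exact binomial test). Ppargc1b (ENSMUSG00000033871.14, chromosome 18, 61298136 to 61400431), a coactivator of mitochondrial genes, had 6.16 and 9.42 TPM from 591 and 723 counts, a log2 ratio of 0.35 (interval 0.19 to 0.51, adjusted p = 9.3e-05). Ppargc1a (ENSMUSG00000029167.13, chromosome 5, 51454250 to 51567726), its cold-inducible relative, had 2.41 and 4.38 TPM from 319 and 404 counts, a log2 ratio of 0.40 (interval 0.18 to 0.62, adjusted p = 0.00126). In both libraries Ppargc1b was above Ppargc1a, with a log2 ratio of Ppargc1a to Ppargc1b of -1.35 and -1.10. All 3 genes are also transcribed in tissues other than fat, and a whole gland does not show which cells they came from.

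The genes of the fat hormones differed between libraries in opposite directions. Adipoq (ENSMUSG00000022878.5, chromosome 16, 23146536 to 23158028) had 38.6 and 51.3 TPM from 1524 and 1776 counts, higher in replicate 2 by a log2 ratio of 0.28 (interval 0.18 to 0.38, adjusted p = 3.13e-07 in the exact binomial test). Lep (ENSMUSG00000059201.12, chromosome 6, 29060220 to 29073877) had 1.38 and 0.98 TPM from 101 and 45 counts. Its count was 2.14-fold lower in replicate 2, a log2 ratio of -1.10 (interval -1.65 to -0.59, adjusted p = 9.2e-05). Within a library the log2 ratio of Lep to Adipoq in TPM was -4.80 in replicate 1 and -5.71 in replicate 2.

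**Figure D2:**
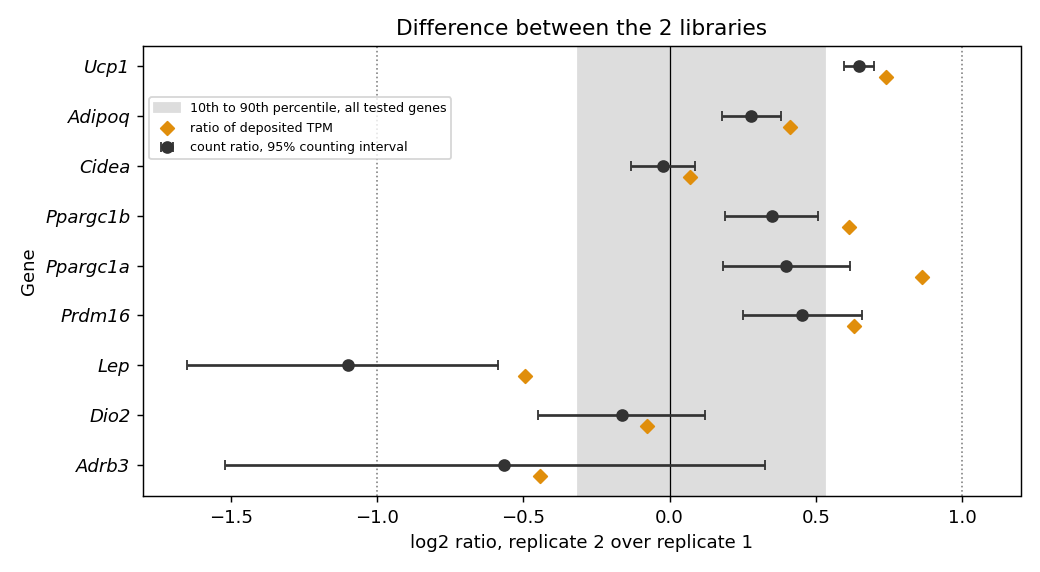
Log2 ratio of replicate 2 over replicate 1 for the 9 tested genes, from TMM-scaled counts (circles, bars are 95% counting intervals) and from deposited TPM (diamonds); grey marks the 10th to 90th percentile of all tested genes (-0.31 to 0.53) and dotted lines 2-fold. Ucp1 lies above the grey range and Lep and Adrb3 below it, and the diamonds of Ucp1, Adipoq, Ppargc1b, Ppargc1a and Lep lie outside the counting intervals.

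Over the 9 tested genes, 5 were higher in replicate 2, 1 was lower and 3 did not pass at an adjusted p of 0.05. Of all 18160 genes tested, 15.9% passed as higher in replicate 2 and 17.6% as lower. With the 2-fold limit added, 1 gene passed, Lep, against 3.38% of all genes higher and 0.606% lower. The 5 higher genes were Ucp1, Adipoq, Ppargc1b, Ppargc1a and Prdm16. The median log2 ratio was 0.28 over the 9 genes and 0.00018 over all genes tested. At these counts the test passes small differences between libraries, so the size of a ratio says more than its p. At a limit of 1.5-fold 2 genes passed, Ucp1 and Lep. No share of all genes is given at that limit, so this count is not read further.

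The ratio between libraries differed between TPM and counts, and most where the listed gene length, a mean over the gene's transcripts, differed between libraries. For genes with 1 transcript the log2 ratio in TPM lay 0.09 above that in counts, as for Ucp1 and Cidea. For Ppargc1a the listed length was 4093 bases in replicate 1 and 3189 in replicate 2, and the ratio in TPM was 0.86 against 0.40 in counts. For Lep the lengths were 2312 and 1640 bases, and the ratio in TPM was -0.49 against -1.10 in counts. Ppargc1b went from 2995 to 2668 bases, with ratios of 0.61 in TPM and 0.35 in counts. The authors' posterior SD of the count was 0 for all 10 genes in both libraries, as for 79.1% of all genes tested.

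The alignment-free table gave higher levels in the same general order. Ucp1 had 173 and 274 TPM there, Adipoq 96.5 and 126, and Cidea 91.0 and 89.4. From its counts the log2 ratio between libraries was 0.64 for Ucp1, 0.24 for Adipoq, -0.06 for Cidea and -1.16 for Lep, close to those of the gene table. The TPM of Ucp1, Adipoq and Cidea thus depended on the table. Counts differed less, those of Ucp1 being 4941 and 7517 there against 5320 and 8004 in the gene table. The ratios rest on counts and the levels on TPM, so their shifts are not set against each other.

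The transcripts behind these lengths were less certain than the genes. Ppargc1a has 5 annotated transcripts from start sites 13782 bases apart. The window shown above belongs to the upstream start, known as a promoter that beta-adrenergic stimulation induces in brown fat, from which Ppargc1a-202 and Ppargc1a-204 begin. They took 6.82 and 16.2 counts, or 2.14% and 4.01% of the gene's counts, but 21.9% and 31.7% of its TPM. All of these counts were in Ppargc1a-202, which is only 488 bases long. The alignment-free table gave them 20.3% and 43.5% of TPM, but from different transcripts. Ppargc1a-204, of 2452 bases, held all of it in replicate 1, and Ppargc1a-202 held 41.9% of the gene's TPM in replicate 2. The other 3 transcripts, from the downstream start, held 97.9% and 96.0% of the counts. Among them Ppargc1a-203, of 6464 bases, had 239.5 and 244.5 counts.

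For Lep, the short Lep-202 of 420 bases held 4.89 and 5.34 counts but 33.3% and 57.1% of TPM, while the full-length Lep-201 had 96.1 and 39.7 counts. The lower Lep count of replicate 2 lay in Lep-201. Adipoq-201 held all Adipoq TPM in replicate 1 and 95.5% in replicate 2 of the alignment-based table, against 66.0% and 58.6% in the alignment-free table. For Ppargc1b-201 the tables differed: it had 0 counts in the alignment-based table and 57.5% and 38.5% of TPM in the alignment-free table. Ppargc1b-202 had 79.9% and 70.0% of TPM in the former and 37.8% and 44.0% in the latter, so the tables named different main forms in replicate 1 and the same one in replicate 2. Prdm16 has 13 annotated transcripts, of which 4 were above 0 TPM in both libraries. Its forms not annotated as coding took 29.5% and 40.8% of its TPM.

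**Figure D3:**
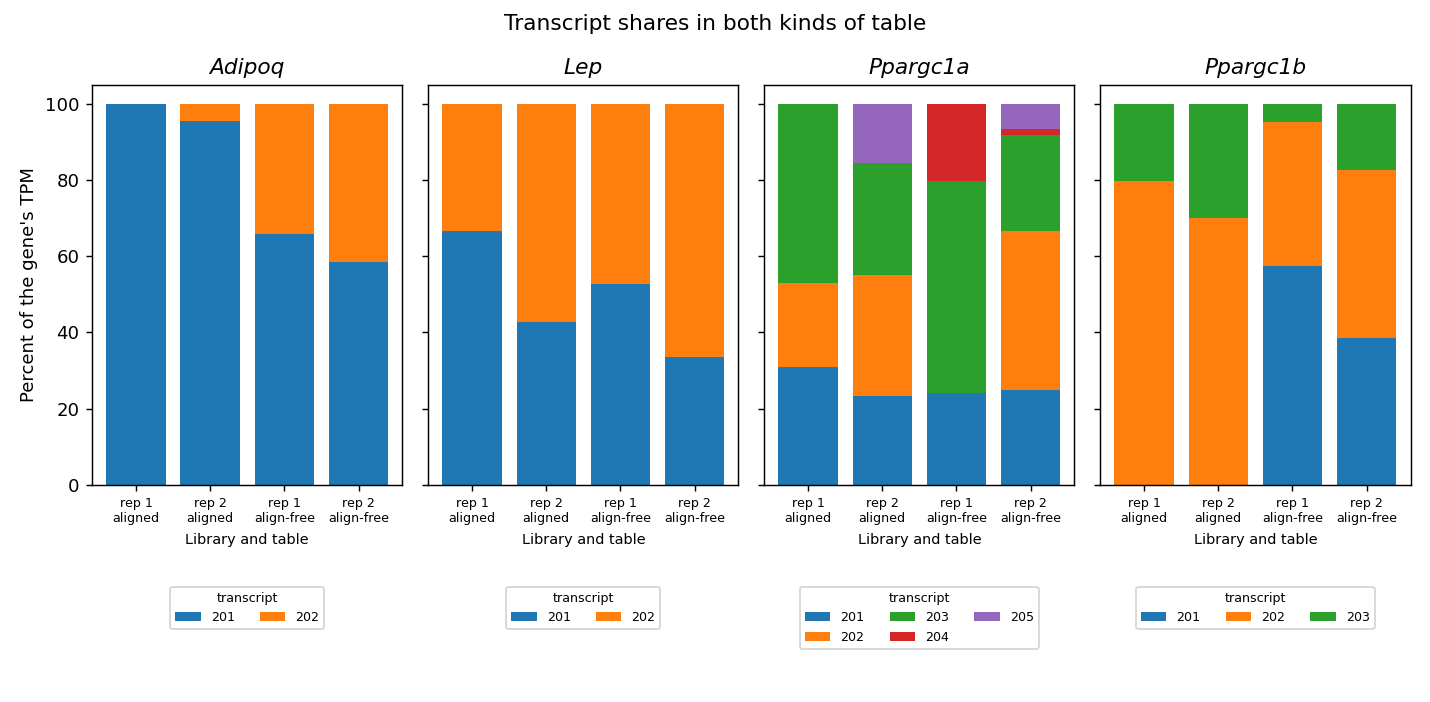
Percent of each gene's TPM by annotated transcript (colours, last digits of the transcript name) for Adipoq, Lep, Ppargc1a and Ppargc1b, in each library and each kind of table. Shares differ more between the kinds of table than between libraries for Adipoq (95.5% or more against 66.0% or less for Adipoq-201) and Ppargc1b.

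A wider set of genes listed for brown fat had mixed levels, and which cells made them was not tested. Of 18 transcriptional regulators of brown fat, 14 reached 1 TPM, led by Cebpb at 100.5 ± 14.5, Nrip1 at 31.65 ± 0.0636, Ehmt1 at 28.1 ± 2.27 and Cebpa at 27.3 ± 0.933 TPM (SD, n = 2). Those under 1 TPM were Irf4, Tbx15, Zic1 and Lhx8. Of the 16 tested, 5 were higher in replicate 2 (Ppara, Rxra, Rxrg, Tbx15 and Klf11) and 2 lower (Cebpb and Pparg), with a median log2 ratio of 0.00014. Pparg, the master regulator of adipocytes, had 15.0 and 10.7 TPM, a log2 ratio of -0.51. Tbx15 passed 2-fold, with 42 and 92 counts (log2 ratio 1.18, adjusted p = 4.79e-05, exact binomial test). Zic1, a marker of classical brown fat, had 5 and 88 counts and was not tested, since replicate 1 was under the filter. Without the filter its log2 ratio was 4.06 (adjusted p = 8.11e-20, exact binomial test). Lhx8, on the same list and also under the filter, went the other way. It had 6 and 4 counts and a log2 ratio of -0.48 without the filter, which did not pass.

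Of 27 genes described as enriched in brown or beige fat, 26 were matched, all but Gyk, and 22 reached 1 TPM. The highest were Kcnk3, a potassium channel that the adrenal cortex also uses, at 275.5 ± 29.2 TPM, the cytochrome oxidase subunits Cox8b and Cox7a1 at 95.4 ± 13.7 and 82.0 ± 9.35 TPM, and Gamt, of creatine synthesis, at 71.1 ± 6.60 TPM. Bmp8b, Tnfrsf9, Epsti1 and Aspg were under 1 TPM. Of the 23 tested, 9 were higher in replicate 2, 3 lower and 11 did not pass, with a median log2 ratio of 0.15. The lower genes were Kcnk3, Pank1 and Clstn3, at log2 ratios of -0.29, -0.19 and -0.35. Otop1, a proton channel of brown fat, had 2.98 and 4.50 TPM, a log2 ratio of 0.64, above the list's median of 0.15. Cpt1b, the muscle and brown fat form of the enzyme that admits fatty acids to mitochondria, had 33.0 and 45.4 TPM, a log2 ratio of 0.35. The 2 past 2-fold were Fabp3 (log2 ratio 1.06) and Slc27a2, a fatty acid transporter also abundant in liver, with 87 and 1346 counts. Sln, the sarcolipin of muscle, had 8 and 69 counts and was not tested.

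Most genes listed for adipocytes of any kind reached 1 TPM, though a whole gland does not show which cells they came from. Of 25 genes, 24 reached 1 TPM, all but Retn at 0.43 TPM, and Fabp4, Plin1, Cd36 and Gpd1 led at 378 ± 40.6, 141 ± 7.30, 118 ± 7.01 and 95.6 ± 17.2 TPM. All were tested, and 16 were higher in replicate 2, 4 lower (Pnpla2, Acvr1c, Gpam and Thrsp) and 5 did not pass (Plin1, Fasn, Slc2a4, Adig and Retn), with a median log2 ratio of 0.20 and a summed level of 1231 and 1400 TPM. Plin1, which coats lipid droplets, had 135.6 and 145.9 TPM and a log2 ratio of 0.03 (adjusted p = 0.457, exact binomial test). Scd1, a fatty acid desaturase that liver also makes, was the only gene past 2-fold, at a log2 ratio of 1.10 in counts. In TPM that ratio was 0.61, under 2-fold, with listed lengths of 2268 and 3335 bases in replicates 1 and 2. Ucp1 was below Fabp4 in both libraries, with a log2 ratio in TPM of -1.74 and -1.22.

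Of 11 genes described as higher in white than in brown fat, 8 reached 1 TPM, led by Mest, Nnat, Agt and Tcf21 at 128 ± 6.12, 127 ± 10.2, 20.4 ± 23.5 and 12.5 ± 1.31 TPM, and Retn, Hoxc9 and Hoxc10 did not. Agt owed its place to replicate 2, with 37.0 TPM against 3.86 TPM in replicate 1, where Tcf21, Npr3 and Hoxc8 were above it. In replicate 2, 4 were higher (Agt, Npr3, Nnat and Trim14), 2 lower (Tcf21 and Hoxc10) and 5 did not pass, and the median log2 ratio was 0.08. Agt, also a liver gene, was past 2-fold with 229 and 1981 counts. The genes that did not pass were Mest, Hoxc8, Sfrp5, Hoxc9 and Retn.

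Among the signalling and oxidation genes around Ucp1, some passed the test in each direction. Of 15 genes of adrenergic and cyclic AMP signalling, 13 reached 1 TPM, led by Gnas at 1102 ± 41.2, Prkar1a at 151 ± 0.488, Prkaca at 85.2 ± 1.51 and Prkar2b at 68.1 ± 3.68 TPM, with Adrb1 and Adcy10 below. Of the 14 tested, 3 were higher in replicate 2 (Pde3b and Pde4d among them), 4 lower (Prkaca, Prkar1a, Creb1 and Mapk14) and 7 did not pass, for a median of -0.03. All 16 genes of fatty acid oxidation reached 1 TPM, led by Acadl, Hadhb, Acadm and Etfa at 178 ± 9.29, 171 ± 1.73, 169 ± 0.283 and 163 ± 2.21 TPM. In replicate 2, 2 of them were higher (Cpt1b and Acadvl), 5 lower (Cpt2, Acadm, Acads, Hadhb and Etfa) and 9 did not pass, for a median of 0.0054.

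Among the relatives of Ucp1, Ucp2, a carrier of immune and many other cells, had 99.7 and 126 TPM and stood level with Ucp1 in replicate 1. The log2 ratio of Ucp1 to Ucp2 was 0.07 in replicate 1 and 0.47 in replicate 2, and in the alignment-free table its mean was -0.34, so which of the pair is higher depends on the table. Ucp3, the form of muscle and brown fat, had 0.99 and 1.28 TPM. Slc25a30 had 28.1 and 18.1, Slc25a14 3.77 and 3.35, and Slc25a27 2.95 and 3.49 TPM. All 6 uncoupling genes reached 1 TPM on average. Ucp1 and Ucp2 were higher in replicate 2, Slc25a30 lower, and 3 did not pass (Ucp3, Slc25a14 and Slc25a27), with a median log2 ratio of 0.25.

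Of 16 relatives of the other members, 12 reached 1 TPM, and Elovl7, Dio1, Dio3 and Adrb1 did not. The elongases Elovl5 and Elovl1 had 94.1 ± 7.86 and 27.7 ± 1.35 TPM, far above Elovl3 at 0.205 ± 0.177 TPM, with Elovl6 at 7.34 ± 0.686, Elovl2 at 6.10 ± 6.62 and Elovl4 at 1.32 ± 0.346 TPM. Cidec, the droplet protein of white and brown fat, had 19.6 ± 3.41 TPM, below Cidea, and Cideb, its liver form, 2.28 ± 2.79 TPM. C1qtnf1, Pprc1, C1qtnf2 and Mecom had 11.3 ± 0.721, 10.5 ± 0.368, 6.38 ± 1.38 and 6.36 ± 1.63 TPM. Of the 15 tested, 4 were higher in replicate 2 (Cidec, Elovl2 and Cideb among them), 5 lower (Elovl5, Elovl1, Elovl6, Mecom and Elovl7) and 6 did not pass, with a median of -0.12. Cideb (11 and 139 counts) and Elovl2 (175 and 1200 counts) were higher past 2-fold and Elovl7 (72 and 32 counts) lower.

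**Figure D4:**
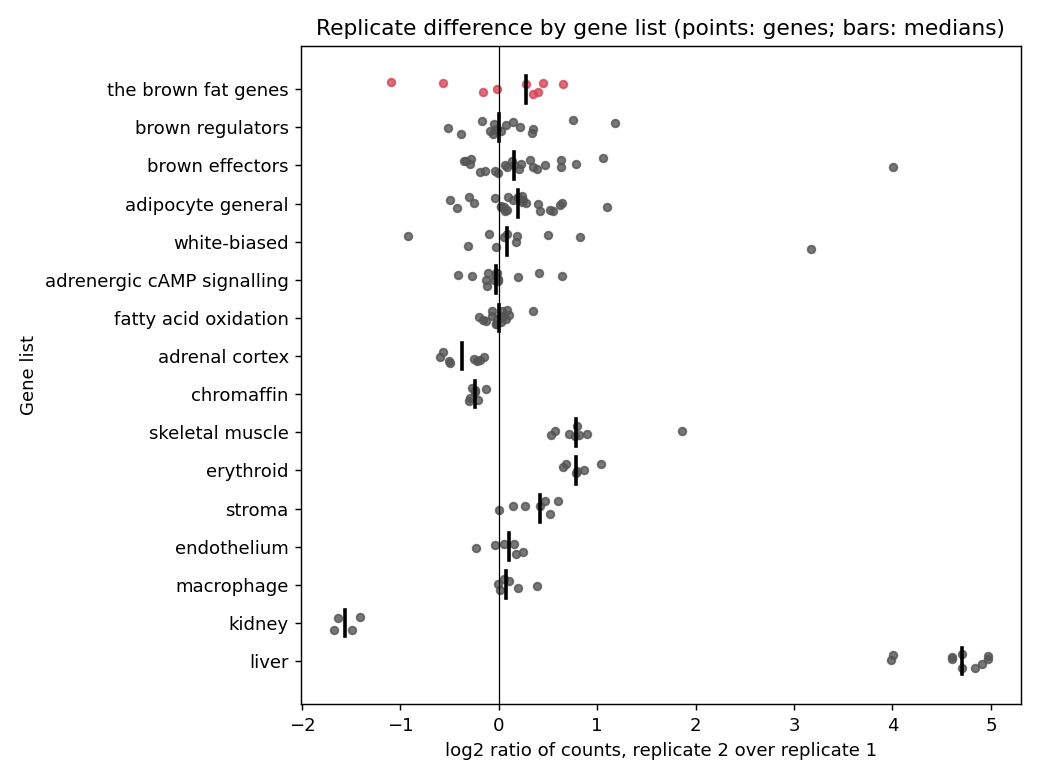
Log2 ratio of replicate 2 over replicate 1 for every tested gene of the lists shown (points, the brown fat genes in red), with the list's median (bar). The lists of uncoupling genes and of relatives of the other members are not shown. The median of the brown fat genes is 0.28, those of cortex and chromaffin genes lie at -0.38 and -0.25, and those of skeletal muscle and erythroid genes at 0.78 and 0.79.

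Markers of other tissues also differed between these libraries, some lists higher and some lower in replicate 2. Gene counts summed to 32231251 and 30292791, and 3 counts, the limit for a gene at 0, equal 0.0942 and 0.0981 CPM. The 8 adrenocortical markers were all lower in replicate 2 (median log2 ratio -0.38, summed level 8667 and 6662 TPM), and so were all 7 chromaffin markers (-0.25, 2135 and 1928 TPM). The defining markers of the labelled tissue were thus present in both libraries. The 8 skeletal muscle markers were all higher (0.78, 614 and 1130 TPM), as were the 6 erythroid markers (0.79, 1829 and 3347 TPM) and 6 of 7 stromal genes (0.42, 966 and 1382 TPM). Of 6 endothelial genes Pecam1, Cdh5 and Egfl7 were higher and Tek lower (0.10, 249 and 284 TPM), and of 6 macrophage genes Lyz2 and Csf1r were higher (0.08, 87.0 and 103 TPM). All 10 liver markers were higher past 2-fold (4.71, 234 and 6047 TPM). The 4 tested of 8 kidney markers (Slc12a1, Aqp2, Slc34a1 and Lrp2) were lower past 2-fold (-1.57, 7.78 and 3.74 TPM for all 8). The other kidney markers were not tested. Without the filter Kap, with 1 and 11 counts, was higher in replicate 2 (log2 ratio 2.99, adjusted p = 0.0271, exact binomial test). By the same test Slc22a6 (34 and 8 counts, log2 ratio -1.96, adjusted p = 0.000993) and Nphs1 (27 and 3 counts, -2.92, adjusted p = 0.000143) were lower. Umod had 12 and 9 counts and did not pass. No marker on these lists had 0 counts in both libraries. Acta1, the actin of skeletal muscle, had 222.5 and 389.5 TPM, and the log2 ratio of Adipoq to it was -2.53 and -2.92. In whole tissue, fewer cells of a type and less RNA per cell cannot be told apart, and the part of these tissues in the levels of Ucp1, Adipoq or the regulators was not tested.

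Ratios within a library do not depend on the scaling between libraries, and with 1 value in each they carry no test. The log2 ratio of Adipoq to Star, the cholesterol carrier of steroid cells, was -4.49 and -3.94 in TPM, and that of Ucp1 to Star -3.05 and -2.18. Against Adipoq, taken as a gene of all adipocytes, Ucp1 had log2 ratios of 1.44 and 1.76, and Cidea 0.11 and -0.23. Adrb3 had -6.83 and -7.68 and Elovl3 -8.91 and -7.28, both from few counts. Of these ratios to Adipoq, those of Ucp1 and Cidea differed between libraries by 0.33 and -0.34, in opposite directions, and that of Lep by -0.91.

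**Figure D5:**
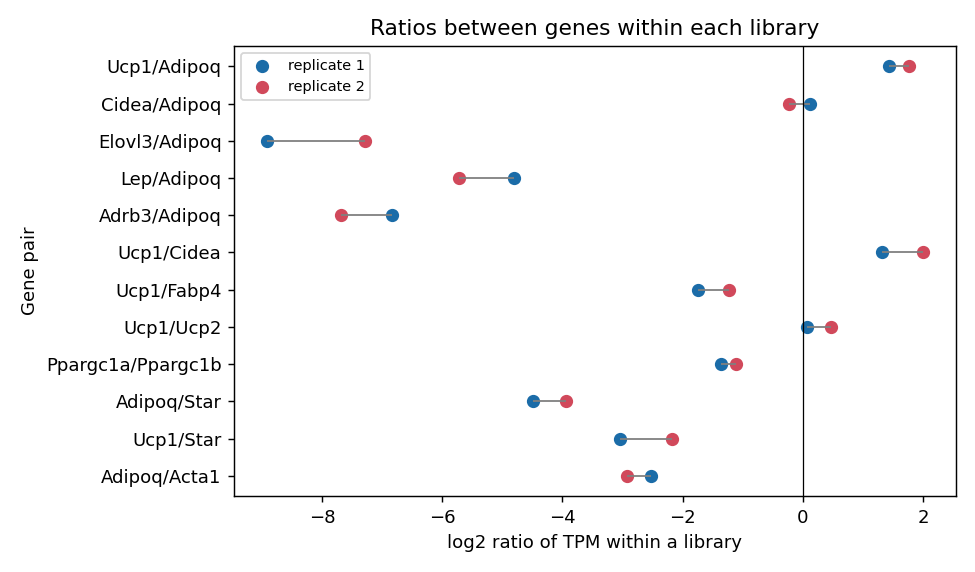
Log2 ratio of TPM between 2 genes of the same library for 12 pairs, in replicate 1 (blue) and replicate 2 (red), joined by a line. Ucp1 to Adipoq lies at 1.44 and 1.76, Cidea to Adipoq on both sides of 0, and the widest gap is that of Elovl3 to Adipoq, which rests on 5 and 16 Elovl3 counts.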

How the data were processed

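Members were found by the symbol in the 6th field of the alignment-free transcript names and joined by gene identifier. Per the file headers and the notes deposited with them, each library has 3 tables made against mm10 and GENCODE M21: a gene and a transcript table derived from a transcriptome alignment, and an alignment-free transcript table. Expected counts and estimated counts deposited by the authors share reads among transcripts. The TPM deposited by the authors is scaled by effective length. No program, and no strand setting of the counting, is stated in the labels or headers. The spike-ins, 1.06% of the counts of either library, were set aside, as were 26248 features named by a number alone (9.21e-06% and 6.53e-06% of counts).

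Expected counts were rounded. TMM sizes came from edgeR 4.0.16 (R 4.3.3) after filterByExpr. Each gene's counts were compared between libraries with an exact two-sided binomial test in scipy 1.17.1, adjusted by Benjamini-Hochberg over 18160 genes, with calls at 0.05. It covers counting error only, as do the 95% intervals (Clopper-Pearson), and no test between conditions exists. Ratios used a prior count of 0.5. The test was checked on simulated counts that held counting error only, so that check does not cover other variation between libraries. Alternatives used DESeq2 1.42.0 size factors, totals, spike-ins, alignment-free values, other thresholds and single libraries. Where a symbol had several genes, that of higher mean TPM was used. Named genes were the 10 members, the 4 highest of each list, genes past the test and 2-fold, relatives at 1 TPM, genes of the fixed ratios and genes behind counts of 5 or fewer. The rule was not carried out in full for the 9 marker lists of other tissues, which are given by counts and sums. Otop1, Cpt1b, Pparg, Zic1 and Sln were singled out after their values were seen. One gene of the lists is counted in them but not reported here. The members and lists were chosen with earlier results of these data known.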

Additional observations from a re-analysis of the deposited data

How the results depend on the processing

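No paired analysis was possible because there is 1 group. The number of members at 1 TPM or more, 8, was 8 or 7 in either library alone and 4 at a limit of 5 TPM. The number past the test and 2-fold, 1, was 2 at 1.5-fold and 6 with no fold limit. It stayed at 1 with DESeq2 or total or spike-in scaling, with alignment-free counts and with no filter. No share of all genes is given beside the counts at 5 TPM and at 1.5-fold, so they are not read as results about the members. None of 63 recomputed log2 ratios of the 9 tested members crossed the threshold, and 2 reversed, both of Cidea, to 0.0092 with total counts and 0.0083 with spike-in counts. The mean log2 ratio of Ucp1 to Ucp2 reversed to -0.34 in the alignment-free table. That of Ucp1 to Adipoq, 1.60, was 0.98 there and 1.99 from counts without length scaling, and in all 9 of 24 recomputed ratios moved by more than their SD with the sign kept. The median of the brown fat regulators reversed to -4.5e-05 with DESeq2 size factors and -0.025 with alignment-free counts, and that of fatty acid oxidation to -0.018 with the latter. Levels moved by more than their SD in 19 of 20 recomputations with another kind of TPM, all upward: 10 with TPM over protein-coding genes, which raises every gene by construction, and 9 in the alignment-free table. With alignment-free counts, genes past the test and 2-fold numbered 1 in place of 2 among brown fat enriched genes, 2 in place of 1 among white fat genes and 1 in place of 3 among relatives of the members. Fabp3 (log2 ratio 0.99) and Elovl7 (-0.81) fell short of 2-fold, Hoxc10 (-1.23) passed it, and Cideb, with 10 and 136 counts, was under the filter. With 5 to 28 counts, Elovl3 and Adrb3 are limited by depth.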
